A study of Homo sapiens with 15 samples.

Results

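HNF4A, FOXA1, FOXA2, FOXA3, GATA4, GATA6, PDX1 and SOX9 encode transcription factors of the pancreatic endoderm, and the open chromatin around these 8 genes was described here. They were given by name, out of 19974 protein-coding RefSeq genes on chromosomes 1 to 22 and X. Peaks of all libraries that overlapped by at least 1 bp were merged into 222814 regions, and every region inside one of the 8 genes or within 50 kb of either end was taken, which gave 151 regions.

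The libraries were made by ATAC-seq, in which a transposase cuts and tags accessible DNA, from HPAF-II, an established human pancreatic adenocarcinoma cell line. The cells were cultured with Lgk974, an inhibitor of the acyltransferase porcupine that Wnt ligands need for secretion, at 1 µM, or with the solvent DMSO. The groups were DMSO for 24 h (4 libraries), Lgk974 for 24 h (4 libraries), DMSO for 48 h (4 libraries) and Lgk974 for 48 h (3 libraries), with 50000 cells in each reaction. The series title gives its question as the effect of Wnt inhibition on interferon-stimulated genes and endogenous retroviruses. Every library came from this 1 line, and the labels do not say whether libraries of a group were separate cultures, and the tests therefore see only the spread among these libraries, which may be technical.

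During development, FOXA and GATA factors bind closed chromatin in the endoderm and are known as pioneer factors, which open sites for others. SOX9 and PDX1 then mark the pancreatic progenitors, and HNF4A, a nuclear receptor, works with the FOXA factors in the epithelia of liver, gut and pancreas. In pancreatic adenocarcinoma, GATA6, HNF4A, FOXA and PDX1 are used as markers of the classical, better differentiated state.

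The deposited data were lists of called peaks, so each library either had or lacked a call in a region, and DNA that was open too weakly to be called looks the same as closed DNA. The lists ran from 53610 to 127886 peaks. The longest belonged to DMSO 24 h replicate 3, which alone called 36.6% of its regions. The shortest belonged to replicate 3 of the Lgk974 groups at both times. Read depth is unknown, because no read counts were used here. A longer list can hold more calls, so counts were also made in lists cut to the same length, the 53610 most significant peaks of each library, called equal lists here. As a check of the cell type, all 10 markers of glandular epithelium (EPCAM, CDH1 and keratins among them) were open at a gene end, with a called region no farther than 1 kb, in 15 of 15 libraries. Markers of other cells (fibroblast, endothelial, blood and neural) numbered 13. Of these, 3 had a called region at a gene end in all 15 libraries, 6 in some and 4 in none. COL1A1, CD3E and LYZ had one in all 15, and PECAM1, DCN, SOX10 and GFAP had none in any library. Of the 6, CD79A and RBFOX3 had one in 12 libraries, COL1A2 in 11 and PDGFRB in 10. PTPRC, which defines blood cells, had one in 2 and CDH5 in 1. The part of other cells in any result was not tested.

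Of the 151 regions, 37 (24.5%) were called in 15 of 15 libraries, beside 15.9% of all regions and 17.97% of the 171599 regions near any protein-coding gene. Another 43 (28.48%) were called in 1 library, beside 39.47% of all regions and 36.38% of those near any protein-coding gene. Of these 43, 21 were called in DMSO 24 h replicate 3. Over the whole set, 87949 regions were called in 1 library, and this library called 36.6% of its 121714 regions alone. The median width was 451 bp, beside 411 bp near any coding gene. The windows differed in how much they held. GATA4 had 36 regions and HNF4A 33, both long genes, while GATA6 had 17, FOXA3 16, FOXA2 15, FOXA1 14, and PDX1 and SOX9 10 each. Regions called in every library numbered 9 around HNF4A, 7 around FOXA3 and around GATA4, 5 around FOXA2, 4 around PDX1, 2 around FOXA1 and around GATA6, and 1 around SOX9. The 18330 coding genes with at least 5 regions had a median of 16 regions, and a median of 4 called in every library. The windows also cover neighbours: the member was the nearest coding gene for 98 of the 151 regions and for 22 of the 37 regions called everywhere.

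**Figure D1:**
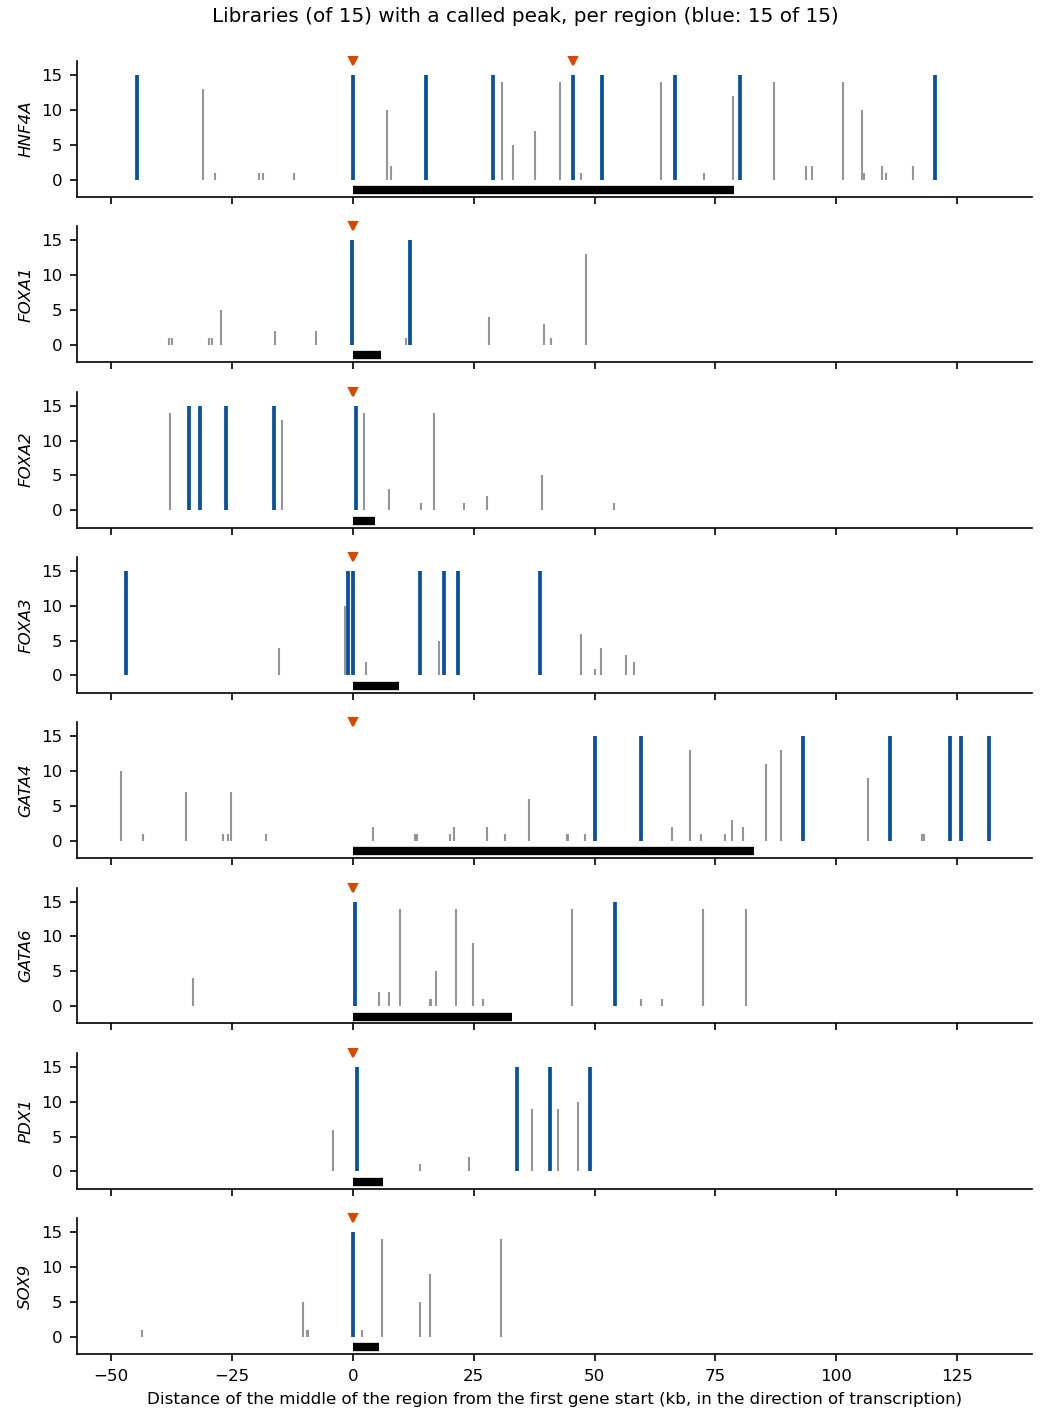
Each line is a region, placed by the distance of its middle from the first start of the gene (kb, in the direction of transcription); its height is the number of the 15 libraries with a called peak, and blue lines are regions called in 15 of 15. Black bars show the genes and triangles the starts; 7 of the 8 genes have a region called in 15 of 15 libraries over the first start, and GATA4 has none until 49652 bp into the gene.

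At 7 of the 8 genes a merged region called in 15 of 15 libraries covered the gene start. A single peak over the start base itself was found in 15 of 15 libraries at the upstream HNF4A start, FOXA3, GATA6, PDX1 and SOX9, and in 14 at the second HNF4A start. At FOXA2 it was found in 12, all but DMSO 24 h replicate 3 and replicate 3 of both Lgk974 groups, and at FOXA1 in 6. GATA4 was the exception, with no peak within 1 kb of either gene end in any library. Over all coding genes, 55.7% had a called region within 1 kb of a gene end in every library and 18.6% in no library. To compare strength within a list, each peak was given its rank by the authors' significance, as a percent from the top (low values are strong peaks). The value given for a start is that of the strongest peak of its merged region, and it depends on the length of the list, so it was not compared between treatments. GATA4 is judged here by the outer ends that the RefSeq table gives; starts within the gene were not examined as starts.

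FOXA1, a pioneer factor on chromosome 14 (chr14:37589552-37595249, hg38), had its strongest peak centred upstream of its start. Its region, chr14:37594218-37596626, was 2409 bp wide, the widest around any of the 8 genes, and reached into TTC6, the neighbour on the other side (chr14:37595629-37842717). The strongest peak of the region ranked at a median of 2.62% and between 0.637% and 7.24%. Its summit lay between positions -885 and -832 bp from the start (negative is upstream) in the 15 libraries, which is inside TTC6, and the peak reached over the FOXA1 start in 2 of them. Where any peak covered the start base, in 6 libraries, its rank ran from 2.30% to 69.4% with a median of 30.3%.

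HNF4A (chr20:44355699-44434596) has 2 promoters in the RefSeq table, and both lay in regions called in 15 of 15 libraries. The upstream one, known as P2 and used in pancreas and gut, was the stronger, with a rank of 4.43% to 14.2% and a median of 7.20%. The downstream one at 44401239, known as P1 and used in adult liver, had a peak over it in 14 libraries with a median rank of 21.3%, from 15.9% to 33.2%, and the ranges did not overlap. In Lgk974 24 h replicate 3, a short list, the peak of that region, at 73.2%, did not reach the P1 start.

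The start regions of the other genes held weaker peaks than HNF4A P2 at the median. FOXA2, the endoderm pioneer factor on chromosome 20, ranked at a median of 20.4% (11.1% to 28.7%) with its summit 464 to 711 bp inside the gene; the weakest and strongest of its values over the start base itself were 28.7% and 14.5%. PDX1, the factor needed for pancreas formation, ranked at 24.5% (9.96% to 33.8%), GATA6 at 25.2% (16.4% to 33.6%) and SOX9, which is also a duct marker in the adult pancreas, at 27.9% (13.4% to 62.3%). FOXA3, a FOXA factor of liver and gut, had the weakest at 43.8% (19.6% to 68.5%). Neighbours in this order from FOXA2 to SOX9 overlapped in their ranges. The start regions of GATA6, PDX1 and SOX9 were all over 2 kb wide, at 2030, 2048 and 2277 bp, against the median of 451 bp. These are widths after merging over libraries, and the 451 bp median includes regions called in 1 library. The strongest single peak of these start regions had a median width of 948, 1756 and 1291 bp. The start was also the widest region at HNF4A (P2, 1829 bp) and FOXA2 (1670 bp), but not at FOXA3, where chr19:45885213-45887010 nearest IRF2BP1 had 1798 bp, nor at GATA4, where chr8:11769264-11770728 nearest NEIL2 had 1465 bp.

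**Figure D2:**
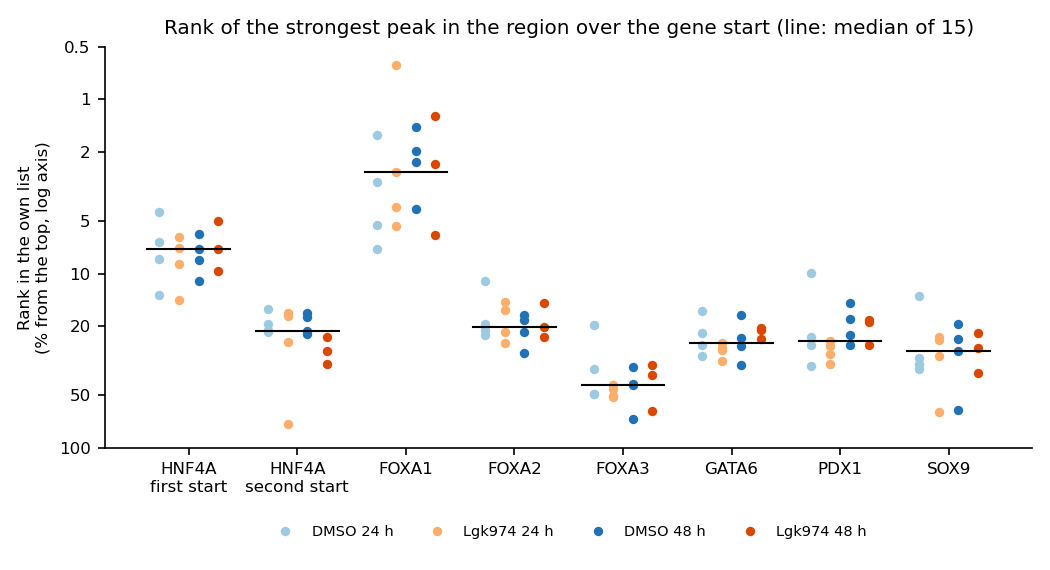
Rank of the strongest peak in the region over each gene start, in its own library's list (percent from the top, log axis, strong peaks at the top), with 1 point per library coloured by group and a line at the median of the 15 libraries. The FOXA1 region, whose strongest peak lies upstream of the start, and the first HNF4A start are highest, with medians of 2.62% and 7.20%, and FOXA3 is lowest at 43.8%; GATA4 has no peak to plot.

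The letters before the start are shown for the pair of HNF4A promoters, which differed in rank, for FOXA3, the weakest, and for FOXA1, whose strongest peak had its summit upstream of these letters. They are the 250 bases before the start, from RefSeq on GRCh38.p14, printed 5′ to 3′ on the strand of the gene, with capitals on motif matches. HNF4A P2 is chr20:44355449-44355698 (plus strand), HNF4A P1 is chr20:44400989-44401238 (plus), FOXA1 is chr14:37595250-37595499 (minus) and FOXA3 is chr19:45864076-45864325 (plus).
HNF4A P2: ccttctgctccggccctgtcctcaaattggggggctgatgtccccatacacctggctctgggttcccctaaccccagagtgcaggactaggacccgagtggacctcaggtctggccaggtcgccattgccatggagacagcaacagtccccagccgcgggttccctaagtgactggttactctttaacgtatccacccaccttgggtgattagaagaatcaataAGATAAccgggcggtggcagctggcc
HNF4A P1: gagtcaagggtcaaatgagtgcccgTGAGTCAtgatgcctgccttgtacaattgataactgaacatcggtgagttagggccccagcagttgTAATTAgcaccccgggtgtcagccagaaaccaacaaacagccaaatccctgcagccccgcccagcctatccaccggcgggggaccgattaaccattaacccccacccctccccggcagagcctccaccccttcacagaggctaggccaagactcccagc
FOXA1: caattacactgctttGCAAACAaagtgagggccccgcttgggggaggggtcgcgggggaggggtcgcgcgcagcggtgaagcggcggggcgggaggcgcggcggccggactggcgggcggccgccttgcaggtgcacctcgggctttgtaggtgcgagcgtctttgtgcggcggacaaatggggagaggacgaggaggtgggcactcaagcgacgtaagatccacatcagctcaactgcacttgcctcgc
FOXA3: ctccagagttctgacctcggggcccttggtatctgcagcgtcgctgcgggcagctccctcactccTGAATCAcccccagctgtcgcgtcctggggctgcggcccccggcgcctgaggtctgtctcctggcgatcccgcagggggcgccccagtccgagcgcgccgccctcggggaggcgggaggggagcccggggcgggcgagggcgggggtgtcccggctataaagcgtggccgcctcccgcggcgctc

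Of the 5 member promoters in the table (these 4 and that of GATA6), each motif was searched on both strands. The FOXA letters TGTTTAC or TGTTTGC matched once, in FOXA1 on the reverse strand at positions -235 to -229 from the start, and 6.09% of all 35116 promoters held them. The GATA letters AGATAA matched once, in HNF4A P2 at -26 to -21 (9.17% of all promoters). HNF4A P1 held the homeodomain letters TAATTA, at -159 to -154 (4.35%), and the AP-1 letters TGANTCA at -225 to -219, and FOXA3 held AP-1 letters at -185 to -179 (6.57%). The HNF4 letters CAAAGTCCA (0.32%), the TCF/LEF letters CTTTGAT (2.26%) and the SOX letters ACAATG (9.29%) matched in none of the 5, and GATA6 had no match to any motif. The GC share was 75.2% in FOXA3, 67.2% in FOXA1, 64.4% in GATA6, 58.4% in HNF4A P2 and 58.0% in P1, beside a median of 58.0% over all promoters. A match is only a description of the letters.

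GATA4, a zinc-finger factor of the foregut and heart (chr8:11676935-11760002), had regions inside the gene but none at its outer annotated start. Between the region ending at 11652026 and the one beginning at 11713196, a stretch of 61.2 kb that reached 36261 bp into the gene, no region was called in 3 or more libraries. That stretch held 8 regions, 5 of them called in 1 library and 3 in 2, and 3 of the 8 were called in DMSO 24 h replicate 3. Inside the gene, 2 regions were called in 15 of 15 libraries, chr8:11726587-11727426 with a median rank of 40.1% and chr8:11736121-11736840 with 36.4%. A further one, chr8:11746269-11746863, was called in 13. The other 5 regions called everywhere in the GATA4 window lay nearest to NEIL2 or FDFT1, as did its strongest, chr8:11802023-11803303 nearest FDFT1 with a rank of 4.30%. GATA4 was therefore the member with the most regions and without a call at its outer start.

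GATA6, the GATA factor with a peak over its start, had its strongest region far downstream. The region chr18:22223230-22224322, 53641 bp from the start and with GATA6 as its nearest coding gene, was called in 15 of 15 libraries at a median rank of 3.56%, against 25.2% for the start. Another 5 regions of the GATA6 window were called in 14 libraries.

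For the FOXA and HNF4A genes the strongest region also lay away from the start, except at FOXA1, where it was the start region with its upstream summit. FOXA2 (chr20:22580998-22585490) had 4 regions upstream called in every library, between 15785 and 33713 bp from the start, and the strongest was chr20:22616584-22617673 with a rank of 3.31%. All 15 regions of its window had FOXA2 as the nearest coding gene. HNF4A had its strongest region inside the gene, chr20:44406607-44407938, 5368 bp from the P1 start, with a median rank of 0.547% and a range of 0.143% to 2.22%. No other of the 37 regions called everywhere had a stronger median rank. FOXA3 (chr19:45864326-45873797) had a region 13474 bp from its start, chr19:45877800-45878646, at 6.01%. Its neighbour's region chr19:45862924-45863791, nearest SYMPK and 535 bp from the FOXA3 start, ranked at 6.93%.

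PDX1 (chr13:27920000-27926313) and SOX9 (chr17:72121020-72126416) had the fewest regions. Apart from the start, the 3 regions called everywhere in the PDX1 window lay nearest CDX2, the intestinal homeobox gene downstream, and the strongest of the window was in CDX2 (chr13:27968268-27969695, 10.7%). SOX9 had its start region and 2 regions called in 14 libraries, chr17:72126537-72127429 and chr17:72151111-72152122.

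The effect of porcupine inhibition was compared region by region with a two-sided exact permutation test that reassigned treatments within each time (2450 assignments, smallest possible p 0.000408). Only regions called in 3 to 12 libraries could be tested, 33 of the 151, so regions called in 13 or more, the starts included, entered no test. None of the 33 passed Benjamini-Hochberg adjustment over all 60356 tested regions by the exact test (smallest adjusted p 0.543), and 0.0% of all tested regions did. With so many regions the adjustment could pass none unless at least 493 of them had the smallest possible p, so a lone region could not have passed, whatever its calls. At an unadjusted p below 0.05, 1 of the 33 was called more often with Lgk974 (3.03%, beside 2.96% of all tested regions) and 2 less often (6.06%, beside 3.08%). The median difference in libraries called was -4.17 percentage points, and it was the same over all tested regions. Of the 33, 15 differences were above 0 and 18 below.

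**Figure D3:**
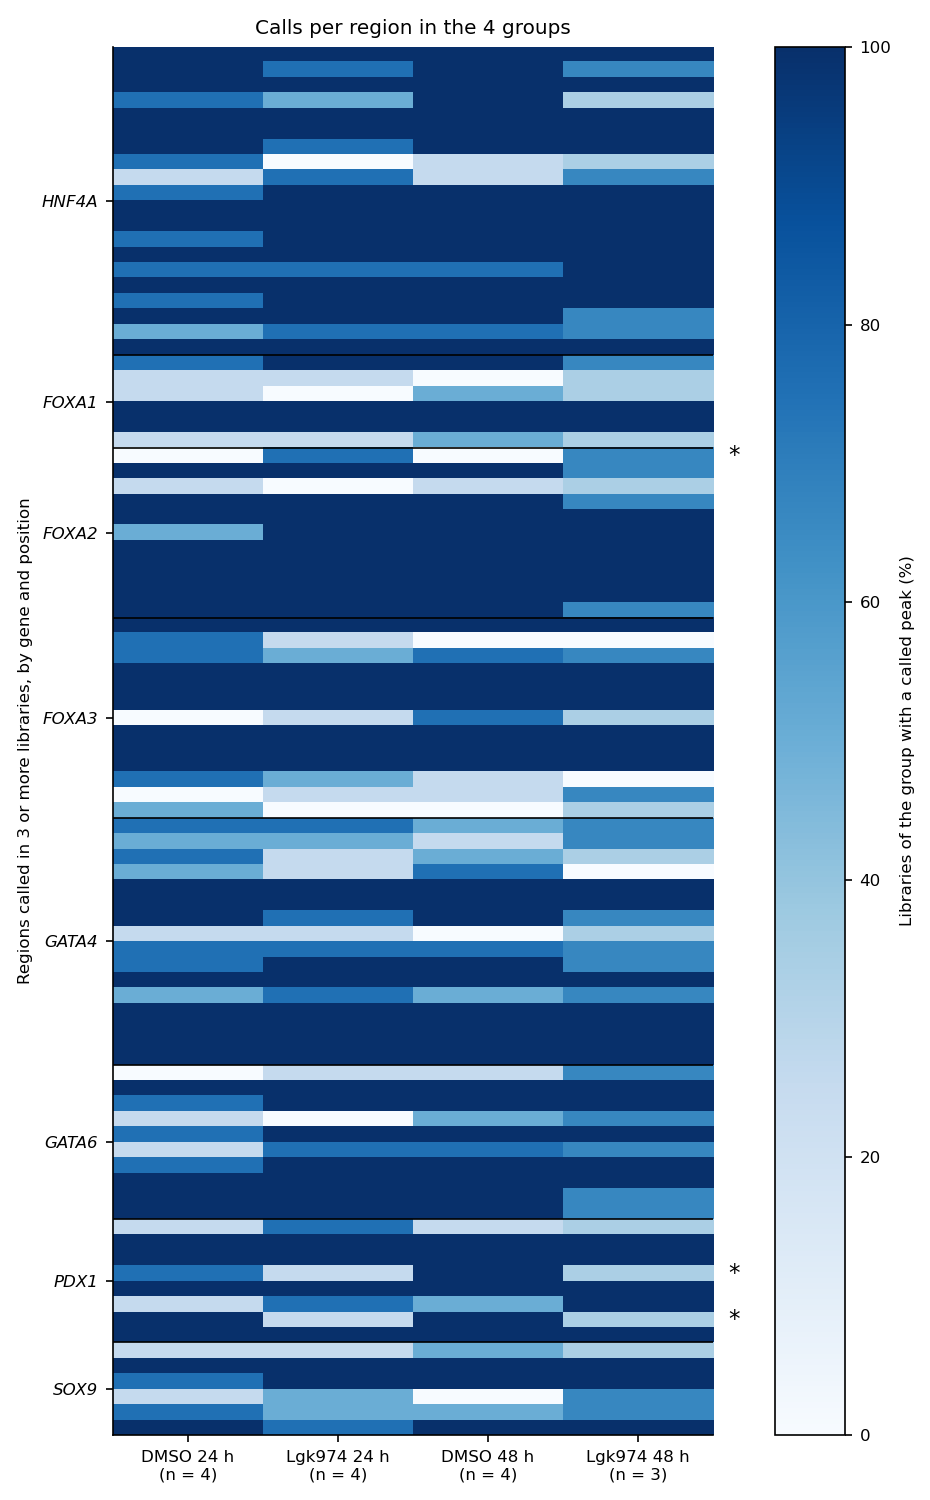
Share of the libraries of each group with a called peak (colour, percent) for every region called in 3 or more libraries, ordered by gene and position. Dark rows across all 4 columns are regions called everywhere; the 3 rows with a star, 1 at FOXA2 and 2 at PDX1, had an unadjusted exact p below 0.05 and none passed adjustment.

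On the downstream side of FOXA2, 38758 bp from its start, the region chr20:22546037-22546732 had a call in 3 of 4 libraries with Lgk974 and 0 of 4 with DMSO at 24 h, and in 2 of 3 and 0 of 4 at 48 h. The exact permutation p was 0.0102 and the adjusted p 0.543. The calls were in Lgk974 24 h replicates 1, 2 and 4, with ranks of 81.9%, 97.8% and 79.1%, and in Lgk974 48 h replicates 1 and 2, with 56.4% and 64.7%. All were thus in the weaker part of their lists, the 2 Lgk974 libraries without a call were those with the shortest lists, and in equal lists the region was called in no library. Without the 3 libraries that stood apart in list length or in regions of their own, the region was called in all Lgk974 libraries left and no DMSO one (a difference of 100 percentage points, exact p = 0.00333). The libraries left out include the 2 Lgk974 libraries without a call, so this full separation follows from leaving them out. The share of all regions separated in that run was not counted. With −log10 q of at least 5, or with peaks covering at least 50% of the region, the difference was 58.3 percentage points (exact p = 0.0306 in both).

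In the PDX1 window, the region chr13:27965854-27967221, which lies inside CDX2 and 45854 bp from the PDX1 start, was called in all 8 libraries with DMSO and in 2 of 7 with Lgk974 (4 of 4 against 1 of 4 at 24 h, 4 of 4 against 1 of 3 at 48 h; exact permutation p = 0.0102, adjusted p 0.543). Its ranks ran from 43.7% to 67.6% in the DMSO libraries and were 89.4% in Lgk974 24 h replicate 4 and 95.2% in Lgk974 48 h replicate 1. The region was picked by its calls in these same lists, and ranks depend on list length. The ranks are therefore only a description, and a difference in rank between treatments was not tested. The neighbouring region chr13:27956808-27957260, nearest CDX2, had a call in 3 of 4 libraries with DMSO and 1 of 4 with Lgk974 at 24 h and in 4 of 4 and 1 of 3 at 48 h (exact permutation p = 0.0388, adjusted p 0.741). Its DMSO ranks were 47.1% to 81.3%, and 83.7% and 81.6% in the Lgk974 libraries. In equal lists the first was called in 2 DMSO libraries and no Lgk974 library (exact p = 0.5), and the second in 3 and 0 (exact p = 0.214). Without the same 3 libraries both had an exact p of 0.0667. Counting only peaks with −log10 q of at least 5, or only peaks that covered at least 50% of the region, the first differed by -87.5 percentage points (exact p = 0.00204 in both). The 3 regions nearest CDX2 that were called in every library entered no test.

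Within a single time the smallest possible p is 0.0286, and it needs full separation, with a call in all libraries on one side and no call on the other side. None of the 35 regions tested at 24 h and none of the 31 at 48 h was separated in that way, and none had an unadjusted exact p below 0.05 (smallest 0.143). Of all tested regions, 0.127% were fully separated towards Lgk974 and 0.347% towards DMSO at 24 h, with 0.811% and 1.33% at 48 h. These counts depend on single libraries. Leaving out Lgk974 48 h replicate 3 left 4 member regions separated at 48 h, all higher with Lgk974, beside 15.5% of all regions tested without it, and leaving out Lgk974 48 h replicate 1 left 3, all lower, beside 4.86%. These shares count both directions together. The number of member regions tested in these runs is not given here, so counts and shares cannot be compared directly. In equal lists 17 member regions could be tested over both times, and none had an exact p below 0.05 (smallest 0.0857), beside 7.61% of all tested regions higher and 6.83% lower with Lgk974.

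Summed over each window, the number of called regions per library did not pass the test with treatment for any of the 8 genes. With all peaks, HNF4A had 19.8 ± 3.30 called regions (mean ± SD) with DMSO at 24 h (n = 4), 17.8 ± 3.20 with Lgk974 at 24 h (n = 4), 18.2 ± 1.5 with DMSO at 48 h (n = 4) and 19 ± 5 with Lgk974 at 48 h (n = 3). The differences, Lgk974 minus DMSO over both times, ran from -2.25 regions for GATA4 to 0.17 for GATA6, with a median of -0.42 over all genes. Their exact permutation p-values ran from 0.321 (GATA4) to 0.913 (SOX9), and each adjusted p over 18330 genes was 1. No gene passed adjustment in the whole table (0.0%), which would have needed 150 genes at the smallest possible p, and at an unadjusted p below 0.05 0 of the 8 were found, beside 0.0873% of all genes higher and 1.82% lower. Between 48 h and 24 h none of the 8 passed either, with exact p-values from 0.345 (FOXA2) to 0.966 (HNF4A), beside 0.0% of all genes after adjustment and 0.251% at an unadjusted p below 0.05. The effect of treatment did not pass a test of a difference between times for any member (smallest exact p 0.351, for FOXA3), beside 1.16% of all genes.

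In the raw counts the libraries of a group differed more than the groups. GATA4 had 14, 15, 23 and 10 called regions with DMSO at 24 h, 15, 13, 8 and 14 with Lgk974 at 24 h, 12, 16, 15 and 15 with DMSO at 48 h, and 13, 19 and 7 with Lgk974 at 48 h. The highest was DMSO 24 h replicate 3, the longest list, and the lowest 2 were the Lgk974 libraries with the shortest lists. All groups overlapped. Without these 3 libraries the difference for GATA4 was 1.25 regions, of the opposite sign (exact p = 0.387).

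Cutting the lists to equal length gave a smaller SD in 26 of the 32 sets of 8 genes and 4 groups. A larger SD was found in 3 and the same in 3. The cut also lowered the counts, with 74 of the 151 regions called in no equal list. A smaller SD therefore does not by itself show closer agreement among libraries. In equal lists 1 member had an unadjusted exact p below 0.05. HNF4A then had 13, 12, 11 and 11 called regions with DMSO at 24 h, 13, 14, 13 and 12 with Lgk974 at 24 h, 13, 14, 13 and 14 with DMSO at 48 h, and 15, 15 and 14 with Lgk974 at 48 h. Within each time the groups touched at 1 or more values. The means were 11.8 ± 0.957, 13 ± 0.816, 13.5 ± 0.577 and 14.7 ± 0.577. The treatment difference was 1.21 regions (exact permutation p = 0.0171, adjusted p 0.360), beside 4.95% of all genes higher at that level. The time difference was 1.71 regions (exact permutation p = 0.00367, adjusted p 0.953), beside 1.8% of all genes higher at 48 h. Neither passed adjustment, and with all peaks both differences had the opposite sign, at -0.63 and -0.12 regions.

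Of the 33 HNF4A regions, 6 were called in 15 of 15 equal lists, 13 in none and 14 in some, and the 14 carried the difference. At 24 h 6 of the 14 were called in a larger share of the Lgk974 libraries, and 4 in a smaller one, and at 48 h 8 were called in a larger and 3 in a smaller share. The widest gap at 24 h was at chr20:44442467-44443243, downstream of the gene, called in 1 of 4 DMSO and 4 of 4 Lgk974 equal lists, but in 4 of 4 and 3 of 3 at 48 h. In the other direction, chr20:44456877-44457451, nearest TTPAL, had a call in 0 of 3 equal lists with Lgk974 and 4 of 4 with DMSO at 48 h. Of all regions tested at 48 h in equal lists, 7.94% were fully separated in either direction. For the other 7 genes the treatment difference in equal lists had an exact p between 0.112 (FOXA2, 0.75 regions) and 1.

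**Figure D4:**
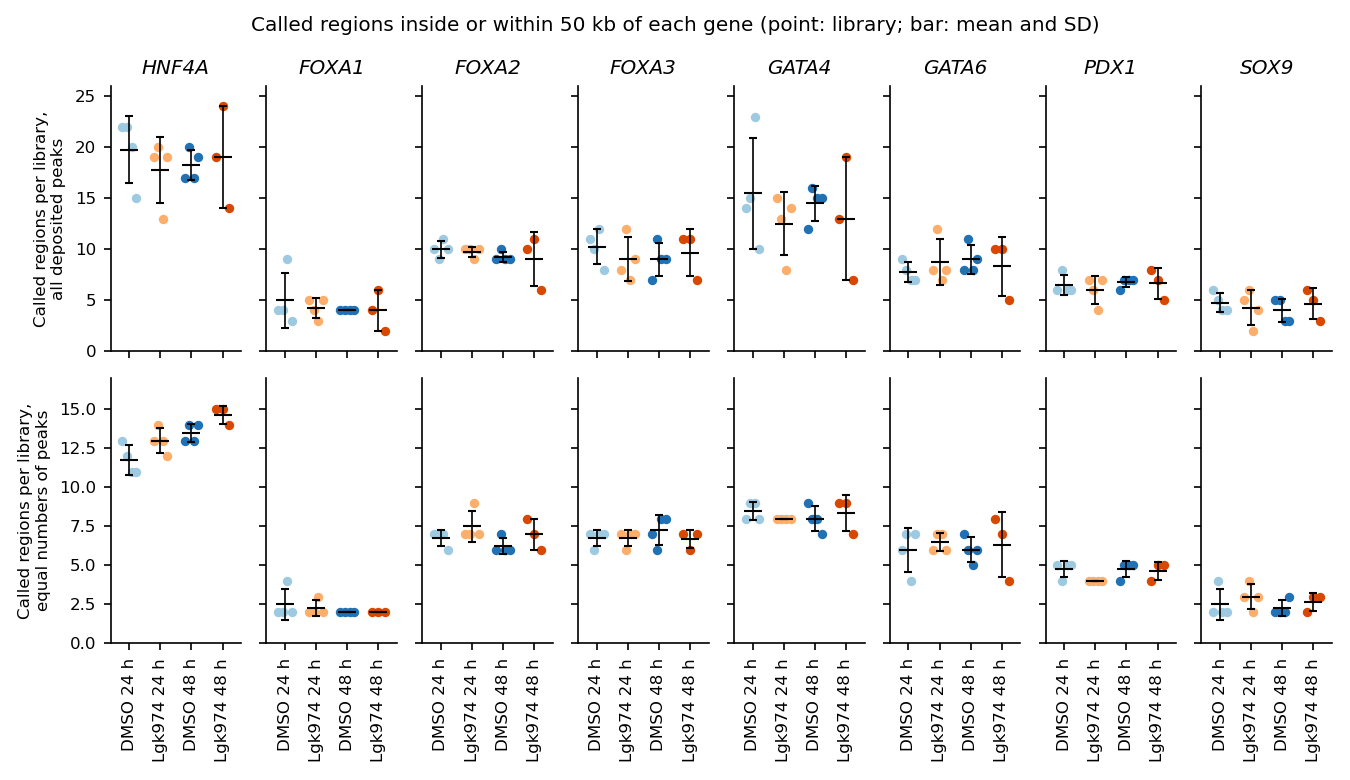
Called regions inside or within 50 kb of each gene per library (points), with the mean and SD of each group (bars), for all deposited peaks (top) and for equal numbers of peaks (bottom). Groups overlap for all 8 genes in the top row; in the bottom row HNF4A runs from a mean of 11.8 to 14.7 over the 4 groups and the groups of the other genes overlap.

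Other genes of the pancreatic programme were read at their ends, within 1 kb. Of 14 further foregut and progenitor factors, 6 had a called region there in 15 of 15 libraries (HNF4G, ONECUT2, HHEX, MNX1, HES1 and ISL1), 8 in some and 0 in none. PROX1 and RFX6 were called in 1 library each. Of 10 endocrine factors, 2 (MAFA and FEV) were called in every library, 5 in some and 3 (NEUROD1, PAX4 and PAX6) in none. Of 9 acinar factors and products, 1 was called in every library (GATM), 5 in some, PTF1A among them with 2 libraries, and 3 in none. Of 9 gastric and intestinal factors, 4 were called in every library (SOX2, CDX2, KLF4 and OSR2) and 5 in some. In these lists 3, 3, 2 and 3 genes had ends called in 3 to 12 libraries, and none had an unadjusted exact p below 0.05 between treatments. With 7 of 8 in every library and 1 in none, the members stood beside 55.7% and 18.6% of all coding genes, as given above for the same measure.

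The genes whose counts in equal lists were most like each member over the 15 libraries, out of 15578 candidates over 1 Mb away, were FOXO1 (r = 0.832) and PID1 for HNF4A, C12orf75 (r = 0.855) and MAP3K1 for FOXA2, AHRR and ILKAP (r = 0.827) for FOXA3, and CNN1 (r = 0.839) and FOXF2 for GATA4. They were DNAH17 (r = 0.846) and PDE12 for GATA6, NOTCH3 (r = 0.793) and HAGHL for PDX1, and COQ9 (r = 0.785) and DNAAF11 for SOX9. For FOXA1 they were the overlapping SYNJ2BP and SYNJ2BP-COX16 (r = 1.0), where FOXA1 departed from 2 called regions in only 2 libraries, DMSO 24 h replicate 3 with 4 and Lgk974 24 h replicate 3 with 3. These are the highest of many values, the points share each library's list quality, and no test was made.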

How the data were processed

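Peaks were called per library, and 15 lists in the narrowPeak layout were used. The build was hg38, and the submitters' processing notes name MACS2 among the tools, with Bowtie2, Trimmomatic and Picard. Their versions and settings, and whether reads were shifted for the transposase, were not given in the sources used here; all can change which weak peaks were listed and where their edges fell. The deposited columns hold a score, a fold (ratio) over background and −log10 p and −log10 q values; the authors' −log10 q was used only to rank or filter peaks within a list, with 2.06 as its lowest value. No count model was applied.

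Of 1413185 peaks, 1138 off chromosomes 1 to 22 and X were left out, and 1 damaged line was read as chromosome 1. A region was called in a library with any peak in it. Gene positions came from RefSeq on GRCh38.p14, the assembly of hg38. Starts came from its promoter table, and for FOXA2, GATA4, PDX1 and SOX9 from the known orientation of the gene. Tests were two-sided exact permutation tests with Benjamini-Hochberg adjustment at 0.05, over regions called in 3 to 12 libraries (2 to 6 of 8 at 24 h, 2 to 5 of 7 at 48 h) or genes with at least 5 regions, in Python 3.11.15 with numpy 2.4.6 and pandas 2.3.3, and were tested on simulated data. Named regions were those at gene starts, the widest and those called everywhere per gene, those with an unadjusted p below 0.05, and those separated completely within a time; the strongest regions, the regions inside GATA4 and the HNF4A regions in equal lists were chosen after their values were seen. The members and gene lists were chosen with earlier results of these data known. Some genes first placed in the lists are not reported here and were left out of the list counts. Groups came from the labels, which number the libraries of a group as samples. These sample numbers are called replicate numbers here. The alternatives were equal lists, −log10 q of at least 5, peaks covering at least 50% of a region, a 20 kb window, a replicate block, and leaving out libraries.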

Additional observations from a re-analysis of the deposited data

Results flagged for a closer look

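Of 48 sets of 4 libraries examined (8 genes, 3 groups, all peaks and equal lists), 17 held a library whose count of called regions lay far from the other 3 for their range; chance alone flags about 1 set in 20 for continuous values, and small whole numbers with ties are flagged more readily. In most of these sets the library differed from the others by only 1 region.

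With all peaks, FOXA1 had 9 called regions in DMSO 24 h replicate 3, the library with the longest list, against 3 to 4 in the others of its group. HNF4A had 13 in Lgk974 24 h replicate 3, a short list, against 19 to 20. PDX1 had 8 in DMSO 24 h replicate 2 against 6, and 6 in DMSO 48 h replicate 1 against 7. FOXA2 had 9 in Lgk974 24 h replicate 3 against 10, and 10 in DMSO 48 h replicate 2 against 9.

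In equal lists, FOXA1 had 4 in DMSO 24 h replicate 3 and 3 in Lgk974 24 h replicate 3, each against 2. FOXA2 had 6 in DMSO 24 h replicate 4 against 7, 9 in Lgk974 24 h replicate 3 against 7, and 7 in DMSO 48 h replicate 2 against 6. FOXA3 had 6 against 7 in replicate 2 of both 24 h groups. PDX1 had 4 against 5 in DMSO 24 h replicate 2 and DMSO 48 h replicate 1. SOX9 had 4 in DMSO 24 h replicate 2 and 3 in DMSO 48 h replicate 4, each against 2.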

How the results depend on the processing

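After adjustment no member region and no member gene passed for treatment in any alternative run. Time and its interaction with treatment were adjusted again only in equal lists and with each library left out. No member gene passed there either. Since the adjustment cannot pass a lone region or gene in this design, these results say nothing about stability. Counts at an unadjusted p below 0.05 moved. The 1 higher and 2 lower regions became 0 and 0 in equal lists, in the replicate block and within 20 kb, and 2 and 0 without the 3 libraries that stood apart. Within 20 kb their loss was fixed by position, because they lie 30495 to 39541 bp from their genes. Leaving out each library gave 1 to 2 higher (2 without DMSO 24 h replicate 2 or Lgk974 24 h replicate 3) and 1 to 3 lower (3 without Lgk974 24 h replicate 1, 1 without most others). Regions separated completely numbered 0 to 1 at 24 h and 0 to 4 at 48 h when each library was left out (1 without DMSO 24 h replicate 4, Lgk974 24 h replicate 3 or 4, or DMSO 48 h replicate 4), and 1 at 48 h in equal lists, at HNF4A. Of all regions tested, in either direction, 1.74%, 2.23%, 0.99% and 3.24% were separated without these 4 libraries, in that order. In equal lists it was 7.94% at 48 h. The number of member regions tested in each run is not given here. Member genes with an unadjusted p below 0.05 were 0 with all peaks and 1 in equal lists, HNF4A, for treatment and for time.

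Same-numbered libraries deviated together with correlations from -0.0321 to 0.1456, and only that of replicate 2 at 48 h was below 0. Libraries with different numbers gave -0.1568 to 0.1506, mostly below 0. Because not all same-numbered values were above 0.1, the numbers were not taken as pairs in the main tests. That choice does not show that the libraries were unpaired. The replicate block (7 pairs) left out DMSO 48 h replicate 4, which had no Lgk974 library of the same number. Pairing changes only the assignments compared, so a changed difference follows from leaving out that library. In this block the treatment difference was -0.0833 regions for SOX9, of the opposite sign. The FOXA2 region and chr13:27965854-27967221 then had an exact p of 0.0625, and chr13:27956808-27957260 one of 0.125. HNF4A in equal lists kept 1.29 regions (exact p = 0.0312).

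Differences in called regions per gene, none with an adjusted p below 0.05, changed sign as follows. For treatment in equal lists they were 1.21 (HNF4A) and 0.75 (FOXA2); with −log10 q of at least 5, 0.292 (HNF4A); with peaks covering 50% of a region, -0.583 (GATA6); within 20 kb, 0.0417 (HNF4A), 0.167 (FOXA1) and 0.5 (PDX1); and without the 3 libraries, 1.46 (HNF4A), 1 (FOXA1), 0.792 (FOXA2), 1 (FOXA3), 1.25 (GATA4) and 0.375 (PDX1). For time in equal lists they were 1.71 (HNF4A), 0.208 (FOXA3) and -0.0833 (GATA6). Leaving out each library, treatment differences ran from -1.88 to 0.625 (HNF4A), -0.875 to 0.292 (FOXA1), -0.75 to 0.5 (FOXA2), -0.792 to 0.375 (FOXA3), -0.375 to 1 (GATA6), -0.625 to 0.125 (PDX1) and -0.25 to 0.5 (SOX9). Time differences ran from -1.38 to 1.12 (HNF4A), -1.12 to 0.0417 (FOXA1), -0.667 to 0.375 (FOXA3), -1.75 to 1.25 (GATA4) and -0.542 to 0.25 (SOX9). For HNF4A in equal lists, alternatives chosen after seeing the data, leaving out each library gave 1.04 to 1.42 regions for treatment (largest exact p 0.0324) and 1.54 to 1.92 for time (largest 0.0114), and leaving out the 3 libraries gave 1.25 (exact p = 0.0333) and 1.75 (exact p = 0.0171). Apart from the settings' construction, the cause of these moves was not tested. Weak peaks, whose calling depends on a depth that is unknown, limit all of these counts.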
